A study of Homo sapiens with 4 samples.

Results

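The regions described here are the broadest stretches of open chromatin shared by 4 ATAC-seq libraries of human pancreatic progenitor cells. Peaks of the 4 peak lists were merged where they overlapped by at least 1 bp on chromosomes 1 to 22, X and Y, which gave 164301 merged regions, of which 25627 held a peak in every list. A broad region was a shared region of at least 2000 bp, and 287 of the 25627 met this limit. The members were therefore selected on their measured merged width and on their presence in all 4 lists, so both are given as a description with no test. Regions of at least 2000 bp that were called in only 1 list (44), 2 lists (70) or 3 lists (54) were left out.

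The cells were pancreatic progenitors differentiated from MEL1, an established human embryonic stem cell line, which the study's methods list as MEL1 INS GFP/W, a reporter line with GFP at the insulin gene, and which all groups share. All 4 libraries came from cells in EF6, a basal medium with B27, EGF, bFGF and 616452, an inhibitor of TGF-beta signalling. The DMSO group (2 libraries) received solvent and the I-BET151 group (2 libraries) received 1 μM I-BET151 for 7 days, with 50000 cells per library. I-BET151 blocks the bromodomains of BET proteins, which read acetylated histones. The labels do not say whether the libraries of a group came from separate cultures, so every p-value below measures only the spread between these libraries, and all cells derive from a single line.

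ATAC-seq uses a transposase that inserts adapters into DNA not wrapped on nucleosomes, so a peak marks a stretch that was cut often. Promoters rich in CpG dinucleotides (CpG islands) are open in most cell types and usually carry the widest nucleosome-depleted stretches. Satellite DNA around centromeres consists of short units repeated in long arrays, and reads from copies that differ little, or that are missing from the assembly, can gather on the copies that the assembly does hold.

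The lists differed in depth and shape before any comparison was made. They held 82568 and 38295 peaks in DMSO replicates 1 and 2, and 84995 and 111324 in I-BET151 replicates 1 and 2. Read totals (M, 1e6 reads) recovered from the peak caller's background were 38.7 and 36.6 M for DMSO and 12.5 and 16 M for I-BET151. Single peaks of at least 2000 bp were nearly all in the replicate 2 lists, with 206 in DMSO replicate 2 and 245 in I-BET151 replicate 2 against 1 and 2 in the replicate 1 lists. The shortest peaks were 200 and 233 bp in DMSO and 200 and 256 bp in I-BET151. The study's methods give a single ATAC-seq peak call, with a limit at -log10 p of 5 and reads extended to 200 bp. All 4 lists held peaks below that limit, with a lowest -log10 p of 3.15 and 3.39 in DMSO and 3.13 and 2.95 in I-BET151. The shortest peaks of the replicate 2 lists were longer than 200 bp. The settings of the deposited lists are therefore not known, and peak numbers, covered bases and the widths that chose the members depend on them. Without I-BET151 replicate 2, 88 regions met the rule in place of 287, among them 29 of the 226 members of single-copy sequence and 56 of the 61 of repeated sequence defined below, and 0 regions held a peak of 2000 bp or more in all 4 lists. Promoter peaks were called in all 4 lists at NKX6-1, SOX9 and FOXA2, in 3 at ONECUT1 and in both I-BET151 lists alone at PDX1. Of the markers of other cell types, INS, GCG, NEUROG3, POU5F1, NANOG and COL1A1 had none, NEUROD1 had a peak in 1 list and VIM in both I-BET151 lists.

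The 287 broad regions fell into 2 kinds by sequence, a property the rule did not use. Stretches of 31 bases were sampled every 10 bp, and their copies were counted in hg38, the build of the peak files. In 226 members at least 90% of these stretches occurred once in the genome, and these are called single-copy below. The other 61 members, called repeated, were 21.3% of the broad regions, against 2.78% of all shared regions. The limit of 90% was set after the values were seen, so the 2 kinds are described and not tested against each other. Of the repeated members, 35 had at least 20% of their bases in the pentamer GGAAT or its complement (median 49.8%), the unit of human satellites II and III, and 26 did not.

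The repeated members and the single-copy members read very differently, and the following stretches from hg38 were chosen to show this. In the first, from the widest member at its DMSO replicate 2 summit, capitals mark GGAAT or ATTCC, which made up 56.7% of the 150 bases.
Widest member, chr10:41875061-41875210, plus strand: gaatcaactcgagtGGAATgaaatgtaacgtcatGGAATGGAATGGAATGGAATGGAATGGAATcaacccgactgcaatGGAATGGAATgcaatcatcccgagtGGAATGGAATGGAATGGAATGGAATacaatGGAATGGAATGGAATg
The second comes from the repeated member with the most CENP-B boxes, the 15-base motif (searched by its fixed letters on both strands) that centromere protein B binds in alpha satellite, and capitals mark a box, here on the minus strand.
Member with most CENP-B boxes, chr15:19778515-19778685, plus strand: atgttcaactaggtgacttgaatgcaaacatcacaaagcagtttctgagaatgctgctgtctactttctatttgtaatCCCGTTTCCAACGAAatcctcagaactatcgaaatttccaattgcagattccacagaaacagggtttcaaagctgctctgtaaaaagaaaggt
The box was found in 9 of the 26 repeated members that were not rich in GGAAT, with 59 boxes in all and up to 10 in a member, and in 0 of the 35 rich in GGAAT. In the windows of 300 bp around the summit it occurred in 9.84% of the repeated members and in 0.0819% of all shared regions.

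The next stretches come from single-copy members over promoters, with CpG in capitals, and were chosen because these genes belong to the Notch pathway or to the pancreatic and foregut transcription factors, or, for TAGLN2, because this was the widest single-copy member. Each is read along the gene's own strand, from outside its annotated exons.
HEY2, chr6:125749482-125749631, plus strand: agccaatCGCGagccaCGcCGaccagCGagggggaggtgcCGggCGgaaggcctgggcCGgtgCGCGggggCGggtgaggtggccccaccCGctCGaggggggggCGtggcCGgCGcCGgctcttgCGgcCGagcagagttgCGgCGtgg
RBPJ, chr4:26320404-26320553, plus strand: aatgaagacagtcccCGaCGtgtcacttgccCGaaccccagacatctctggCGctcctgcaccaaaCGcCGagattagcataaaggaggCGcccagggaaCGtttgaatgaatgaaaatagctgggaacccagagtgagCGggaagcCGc
FOXA1, chr14:37595350-37595499, minus strand: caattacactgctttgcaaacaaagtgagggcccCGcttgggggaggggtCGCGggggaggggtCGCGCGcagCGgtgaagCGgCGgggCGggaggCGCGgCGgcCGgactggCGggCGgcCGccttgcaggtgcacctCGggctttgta
MEIS2, chr15:37100550-37100699, minus strand: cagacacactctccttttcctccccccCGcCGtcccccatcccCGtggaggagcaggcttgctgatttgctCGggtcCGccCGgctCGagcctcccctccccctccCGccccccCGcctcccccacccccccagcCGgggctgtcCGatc
TAGLN2, chr1:159925508-159925657, minus strand: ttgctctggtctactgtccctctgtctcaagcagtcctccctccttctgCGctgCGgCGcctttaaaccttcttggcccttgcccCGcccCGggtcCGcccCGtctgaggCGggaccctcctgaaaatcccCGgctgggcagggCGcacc
These 150-base windows held 21, 10, 18, 11 and 10 CpG dinucleotides, in that order. A single-copy member far from any promoter, whose nearest protein-coding TSS was that of TMEFF2, is shown for contrast with the 150 bases around its summit, which held 1 CpG.
Intergenic member nearest to TMEFF2, chr2:192578803-192578952, plus strand: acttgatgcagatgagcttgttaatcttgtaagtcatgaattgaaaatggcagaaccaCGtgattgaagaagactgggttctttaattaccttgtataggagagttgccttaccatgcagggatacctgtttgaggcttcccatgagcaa

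The 226 single-copy members were mostly promoters. A TSS of a protein-coding gene (GENCODE release 44, any transcript) lay inside 206 of them (91.2%), against 40.7% of all shared regions. Because a wider region covers a TSS more readily, the distance of the summit was also taken, which does not depend on the width. The summit lay within 1000 bp of a protein-coding TSS in 85.0% of the single-copy members, in 42.5% of the narrower single-copy shared regions and in 42.4% of all shared regions. In 34 members genes on both strands started inside the region, which was 16.5% of those over a TSS, beside 12.2% of the narrower shared regions over a TSS. A wider region also takes in starts on both strands more readily, so nothing is read from this difference. The 20 single-copy members with no protein-coding TSS comprised 8 over the start of another annotated gene, 5 inside a protein-coding gene, 2 inside another gene and 5 between genes.

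By base composition the 226 single-copy members, of which 206 covered a protein-coding TSS, resembled the narrower promoters. The central 1000 bp was CpG-rich (at least 50% G or C and an observed-to-expected CpG ratio of at least 0.6) in 82.7% of the single-copy members and in 81.8% of the narrower shared regions over a protein-coding TSS, but in 37.0% of all shared regions. Median G and C content of that window was 64.6% in the members and 61.9% in the narrower promoters. A GC box (GGGCGG, on both strands, in the 300 bp around the summit) was found in 78.6% of the members over a TSS and in 72.1% of the narrower promoters. The ETS site CCGGAAGT was found in 2.91% and 8.09%, and the NRF1 site, a GC-rich palindrome, in 0.971% and 2.28%. A CCAAT box (CCAAT) was present in 32.0% and 37.1%, a TATA box (TATAAA) in 4.85% and 3.63%, an E-box (CACGTG) in 9.71% and 9.45%, and an AP-1 site (TGACTCA) in 3.40% and 3.22%. Over all shared regions the share was 37.8% for the GC box, 3.53% for the ETS site, 0.995% for the NRF1 site, 35.2% for CCAAT, 9.55% for TATAAA, 6.56% for CACGTG and 11.6% for TGACTCA. These matches are a description of letters in a window.

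Single-copy members reached further into the transcribed side than upstream. Of 190 with a canonical TSS inside, the median reach was 899 bp before and 1207 bp after the TSS, and 113 reached further after it than before. Narrower promoters were even, with medians of 506 bp before and 512 bp after. By gene part, 5.60% of the bases of the single-copy members were coding, 10.4% lay in UTRs of canonical protein-coding transcripts, 47.7% in introns, 14.4% between genes and the rest in other exons. The reach after the TSS came mainly from a single library. I-BET151 replicate 2 covered a median of 881 bp before and 1182 bp after the TSS, whereas DMSO replicates 1 and 2 covered 513 and 597 bp before and 451 and 577 bp after, and I-BET151 replicate 1 covered 604 bp before and 622 bp after. The TSS itself lay under a peak in 152 and 153 of the 190 members in the DMSO lists, in 176 in I-BET151 replicate 1 and in all 190 in I-BET151 replicate 2. At 1000 bp after the TSS, 18.9% and 27.9% of these members were under a peak in the DMSO lists, 30.0% in I-BET151 replicate 1 and 63.2% in I-BET151 replicate 2.

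**Figure D1:**
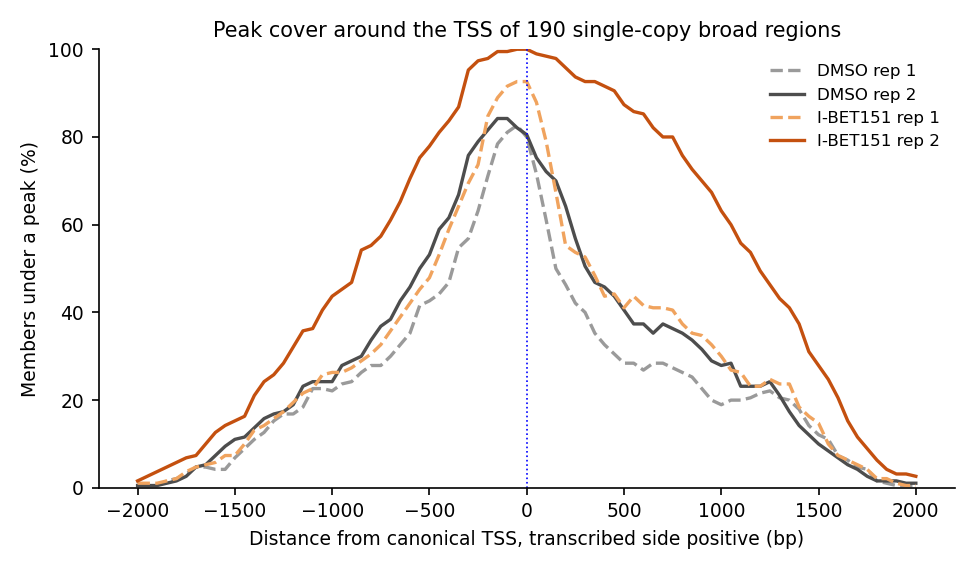
Share of 190 single-copy broad regions that lay under a peak (y axis, %) at each distance from the canonical TSS (x axis, bp, transcribed side positive), with a line for each library and the TSS as a dotted line. The I-BET151 replicate 2 line lies above the other libraries on both sides and most clearly after the TSS, where at 1000 bp it stands at 63.2%.

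The width of a broad region was made by different libraries in the 2 kinds. In single-copy members peaks covered a mean of 1015 bp in DMSO replicate 1, 1222 bp in DMSO replicate 2, 1266 bp in I-BET151 replicate 1 and 2098 bp in I-BET151 replicate 2. I-BET151 replicate 2 covered the most bases in 217 of the 226, with a single peak in 220, while the replicate 1 lists split the same regions into 1.92 peaks (DMSO) and 2.05 peaks (I-BET151) on average. In repeated members the means were 966, 5264, 571 and 3502 bp in the same order of libraries, and DMSO replicate 2 covered the most bases in 57 of the 61. As each peak row carried its own summit, these peak numbers are also the numbers of summits. Over all 287 members the mean covered width was 1005, 2081, 1118 and 2397 bp, and the ratio of the I-BET151 to the DMSO mean was 1.14. That ratio was 0.842 without DMSO replicate 1 and 0.327 without I-BET151 replicate 2, so its direction depended on which libraries were kept. Both I-BET151 lists covered more bases than both DMSO lists in 110 single-copy members (48.7%) and 1 repeated member, where 51% of all shared regions were covered in that way, and both covered fewer in 1 member (0.348%) beside 2.7% of all shared regions. As width chose the members, nothing is read from these counts.

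**Figure D2:**
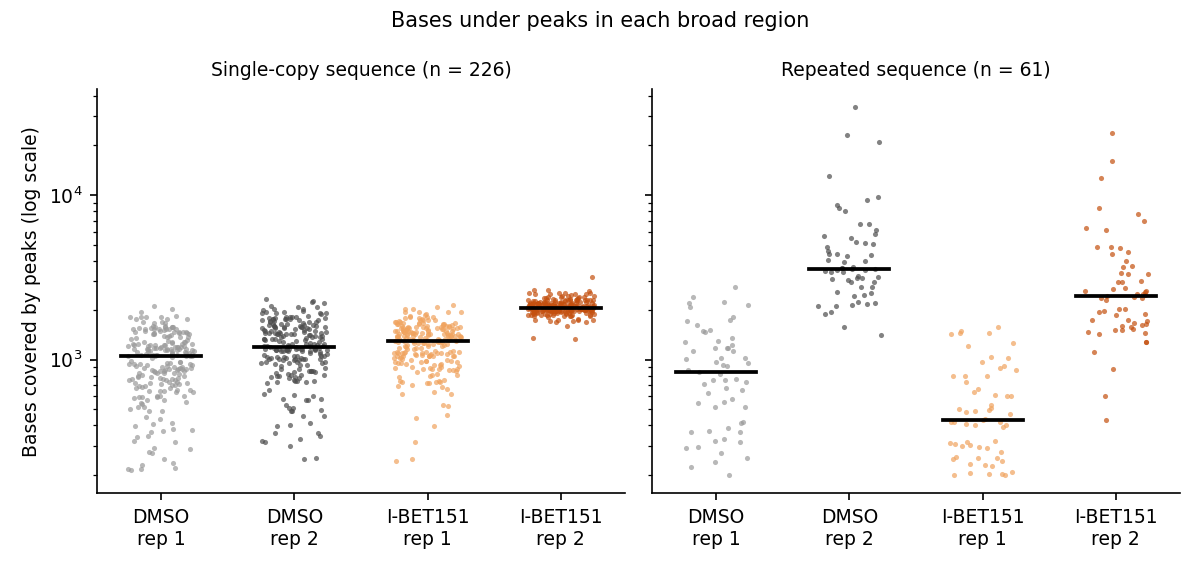
Bases covered by peaks in each broad region (y axis, log scale) for the 4 libraries, with 226 single-copy members on the left and 61 repeated members on the right, a point for each region and a bar at the median. I-BET151 replicate 2 is highest in single-copy members, whereas DMSO replicate 2 is highest in repeated members.

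The widest members were arrays of GGAAT units. The widest of all, chr10:41873536-41907610, spanned 34075 bp between genes with 54.7% of its bases in GGAAT units and ZNF33B as the nearest protein-coding TSS to its summit. DMSO replicate 2 covered all 34075 bp of it with a single peak, I-BET151 replicate 2 covered 23745 bp with 8 peaks, DMSO replicate 1 covered 2397 bp with 6 and I-BET151 replicate 1 covered 1258 bp with 4. Next came 2 arrays on chromosome 4, of 23205 bp (from position 49101397) and 21003 bp (from position 49637052), which DMSO replicate 2 also covered whole. Of the 10 widest members, 4 lay on chromosome 4, 3 on chromosome 10 and 1 each on chromosomes 2, 21 and Y, all between genes and with 40.0% to 56.4% of their bases in GGAAT units. The other 7, in descending order, spanned 13127, 9694, 9346, 8707, 8349, 7952 and 6649 bp. Repeated members clustered, with 31 of 61 within 100 kb of another member, against 8 of 226 single-copy members.

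Repeated members rarely touched genes. Between genes lay 49 of the 61, and 3 covered a protein-coding TSS. These 3 were the starts of PPP1R15B, a subunit that directs dephosphorylation of eIF2-alpha, of the ALG5 and EXOSC8 pair, and of TTI2, where 77.2%, 88.2% and 88.5% of the 31-base stretches were single-copy.

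The single-copy members spanned 2004 to 3296 bp. The widest was the TAGLN2 start (chr1:159922526-159925821, an actin-binding protein gene), where peaks covered 651 and 1381 bp in the DMSO lists and 1819 and 3161 bp in the I-BET151 lists. It was followed by NDNF (2669 bp), VLDLR (2665 bp), NR3C1 (2636 bp) and ZNF496 (2604 bp), named here after their values were seen. NR3C1 encodes the glucocorticoid receptor, and at its start 692 and 921 bp were covered in DMSO and 873 and 2636 bp in I-BET151. In all 5 the covered width in I-BET151 replicate 2 exceeded that in every other library, and I-BET151 replicate 1 lay nearer the DMSO lists. Just inside the limit were the starts of RFFL (2004 bp), STAG1 (2005 bp) and PROM1 (2005 bp), and just outside it were CHD1 (1995 bp), GABRA2 (1996 bp) and a satellite region on chromosome 5 (1996 bp).

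**Figure D3:**
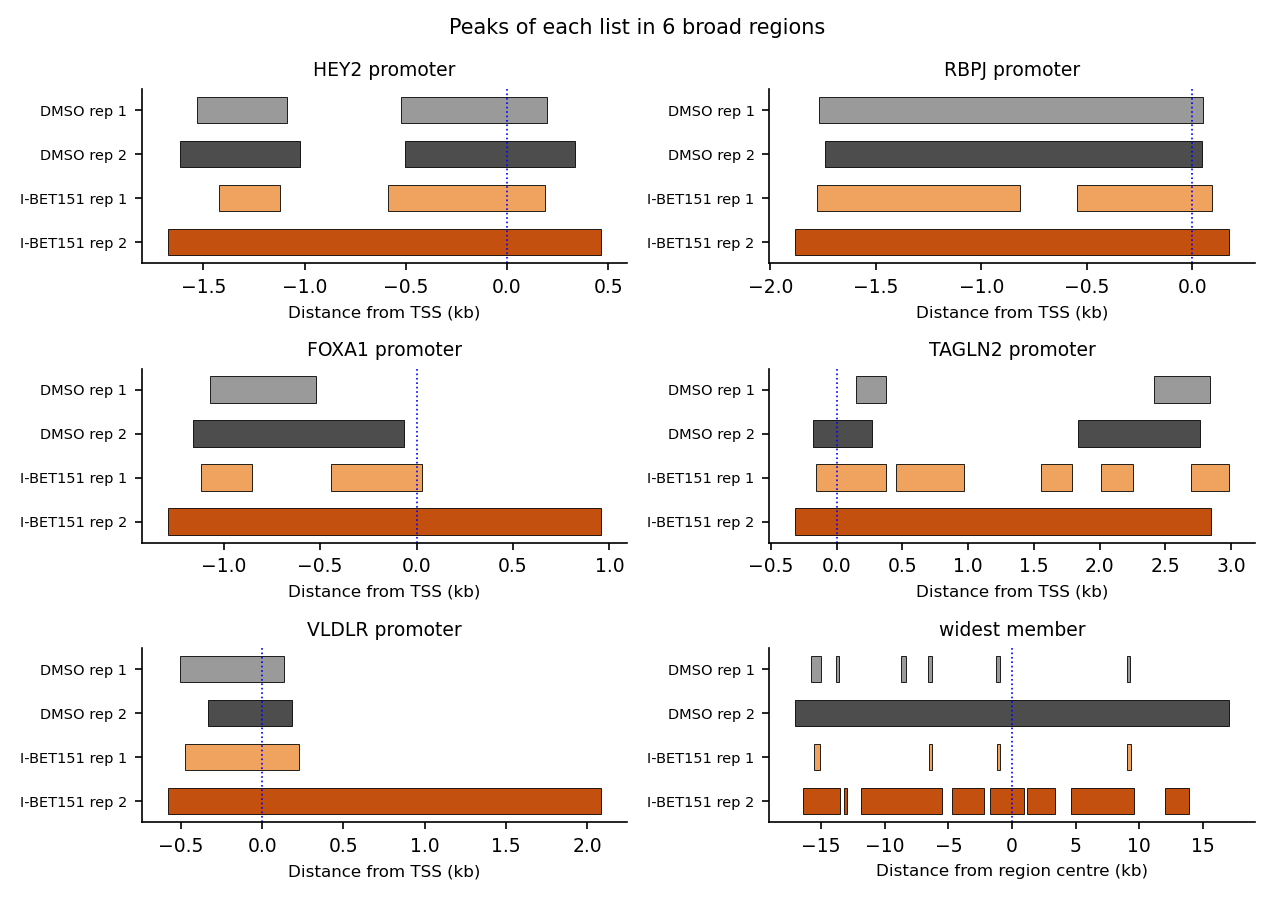
Peaks of the 4 lists (rows) in 5 promoter members, drawn by distance from the TSS (kb), and in the widest member, drawn by distance from its centre (kb), with each bar a called peak. I-BET151 replicate 2 holds a single peak over each promoter, while in the widest member DMSO replicate 2 holds a single peak of 34075 bp and the other lists hold 4 to 8 peaks.

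Among the pancreatic and foregut transcription factors listed, 23 of 40 genes had a shared region over a TSS and 2 of these regions were broad. FOXA1, a forkhead factor of the foregut endoderm, shared its 2247 bp region (chr14:37594291-37596537) with the start of TTC6. Peaks covered 547 and 1090 bp of it in DMSO and 733 and 2247 bp in I-BET151, with highest folds of 4.12, 3.16, 4.02 and 5.52. Fold here is the read pileup at a peak's summit over the background around it in the same library. MEIS2, a TALE homeodomain factor, had a 2179 bp region (chr15:37100039-37102217), of which 375 and 580 bp were covered in DMSO and 1302 and 2104 bp in I-BET151. Of the remaining members of that list the widest shared region was 1649 bp, over GATA4, while that over SOX9 was 821 bp.

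The Notch pathway, through which neighbouring cells hold progenitors back from endocrine differentiation, also had 2 broad starts among 18 genes with a shared region. RBPJ, the DNA-binding factor of the pathway, had a 2054 bp region (chr4:26319132-26321185), covered over 1822 and 1789 bp in DMSO and 1601 and 2054 bp in I-BET151, so peaks covered over 50% of it in every list, as they did in 79 of the 287 members. HEY2, a repressor that Notch activates, had a 2141 bp region (chr6:125747957-125750097). It held 2 peaks in each of the DMSO lists and in I-BET151 replicate 1, covering 1161, 1431 and 1078 bp, and a single peak of 2141 bp in I-BET151 replicate 2. The HES1 start, another Notch target, had a shared region of 469 bp.

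Over all protein-coding genes, 11028 had a shared region over a TSS and 251 of them (2.28%) a broad one. The listed receptors, ligands and feedback genes of EGF and FGF signalling had 3 of 24. DUSP6, a phosphatase that switches off ERK, was covered over 1391 and 1704 bp in DMSO and 1629 and 2040 bp in I-BET151. ETV4, an ETS factor downstream of FGF that shares its region with DHX8, was covered over 271 and 812 bp in DMSO and 1048 and 2043 bp in I-BET151. ERBB4, a receptor tyrosine kinase, was covered over 438 and 498 bp in DMSO and 318 and 2004 bp in I-BET151.

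Cell cycle and replication genes had 2 of 32, both of them inhibitors of cyclin-dependent kinases. CDKN2A was covered over 554 and 573 bp in DMSO and 1584 and 1906 bp in I-BET151, and CDKN2C over 940 and 1461 bp in DMSO and 1127 and 2042 bp in I-BET151. The cytosolic ribosomal proteins had 1 of 50, RPL7, whose region also holds the start of RDH10, an enzyme of retinoic acid synthesis. The endocrine hormone and secretory list had 1 of 4, the SNARE protein gene SNAP25. No broad start was found among 21 BET and elongation genes, 27 immediate early and MYC network genes, 28 clustered histone genes, 28 genes of TGF-beta and BMP feedback, 6 pluripotency genes and 1 HOX gene with a shared region. With lists this short and 2.28% of all genes broad, these counts are given as a description.

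Broad regions ranked below the shared mean in fold in 3 of 4 libraries and above it in DMSO replicate 2. Fold percentiles were taken within each library among all regions called there, and the mean over the 287 members was 68.0 and 65.8 in the DMSO lists and 63.2 and 64.2 in the I-BET151 lists, while the mean over all shared regions was 72.1, 59.8, 72.4 and 78.9. In DMSO replicate 2, which helped to choose the repeated members, 25.8% of the members and 14.1% of all shared regions stood in the top 10% of the list. By kind, this share was 8.85% of the single-copy and 88.5% of the repeated members. In DMSO replicate 1 the shares were 20.9% of the members and 28.7% of all shared regions. They were 4.88% and 27.4% in I-BET151 replicate 1 and 7.32% and 35.3% in I-BET151 replicate 2. The difference of I-BET151 minus DMSO was -3.23 percentage points, with an exact two-sided permutation p of 0.33, the smallest that 2 against 2 libraries allow. Mean percentiles of the repeated members were 75.8 and 95.4 in DMSO and 54.8 and 73.3 in I-BET151. Those of the single-copy members were 65.9 and 57.8 in DMSO, with both I-BET151 values between them (65.4 and 61.7). As the members were not chosen free of these folds, the p supports no difference between the groups. Ranked by -log10 p in place of fold, the difference over all 287 was 2.97 with the opposite sign (exact permutation p = 0.67).

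Single-copy members had summits about as tall as those of other promoters, with lower folds. Their median summit pileup was 35, 34.5, 41.5 and 76 reads (DMSO replicates 1 and 2, then I-BET151 replicates 1 and 2), and that of narrower shared regions over a protein-coding TSS was 35, 34, 39 and 74 reads. In I-BET151 replicate 2 the median over all shared regions was 55 reads, and the median highest fold was 7.13 in the members, 10.5 in the narrower promoters and 10.0 over all shared regions. The median local background was 6.42 times the genome-wide level around these members and 2.99 times around all shared regions. In DMSO replicate 1 the median fold was 4.65 for the members, 5.56 for the narrower promoters and 5.16 for all shared regions. The lowest mean percentiles were those of ZNF462 (8.84), TAGLN2 (14.4) and the start shared by ARHGEF40 and NDRG2 (19.4).

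Repeated members ranked highest in DMSO replicate 2, a library without which 39 of the 61 still met the rule. Their median percentile was 84.5 and 99.2 in the DMSO lists and 57.7 and 77.3 in the I-BET151 lists. In DMSO replicate 2, 32 of the 61 stood in the top 1% of that list, against 6, 1 and 7 in DMSO replicate 1 and I-BET151 replicates 1 and 2. The median summit pileup was 155 reads there, against 46 in DMSO replicate 1. That library covered the most bases in 57 of the 61 and so helped to choose them. Their ranks and pileups in it are therefore a description, not free of the choice. The highest mean percentile of all members (99.8) belonged to chr18:20561645-20564088, 2444 bp between genes with 6 CENP-B boxes, whose highest folds were 18.5 and 21 in DMSO and 18.1 and 18.4 in I-BET151. It was followed by GGAAT-rich regions on chromosome 1 (99.2) and chromosome 17 (98.9).

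**Figure D4:**
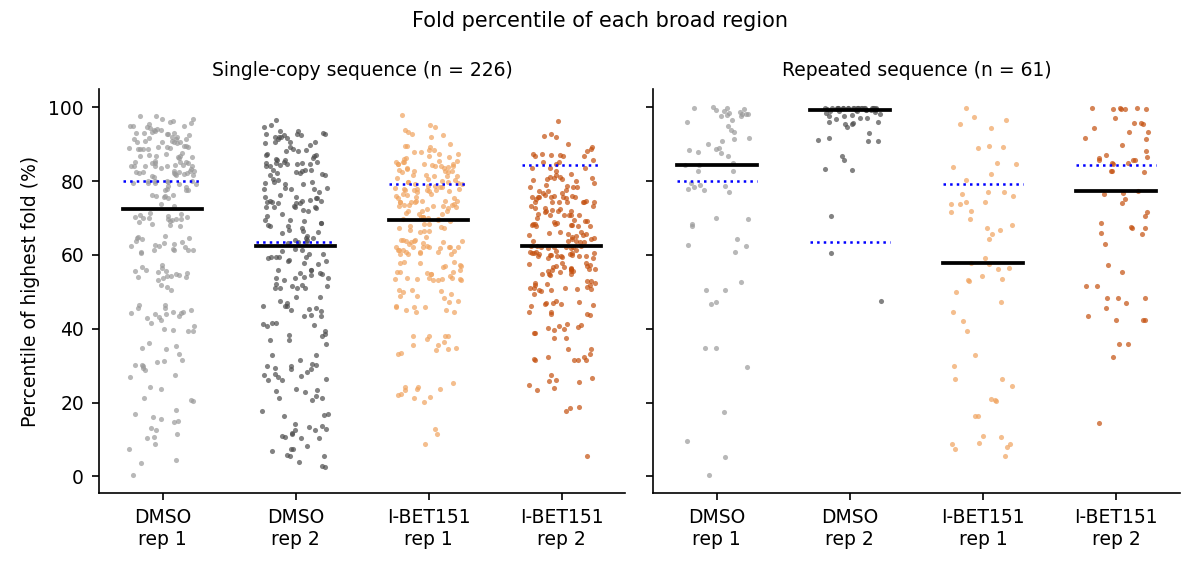
Percentile of the highest fold (y axis, %) of each broad region among all regions called in the same library, for 226 single-copy members (left) and 61 repeated members (right), with the members' median as a black bar and the median of all 25627 shared regions as a dotted line. Repeated members, whose choice was not free of the folds in DMSO replicate 2, stand highest there (median 99.2). Single-copy members lie below the shared median in all 4 libraries.

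Whether fold rank differed with I-BET151 was tested with limma on normal scores of the ranks in each library, fitted over all 25627 shared regions with Benjamini-Hochberg adjustment over all of them. The rule did not use this contrast, although the width of a peak and its fold come from the same reads. Of the 287 broad regions, 29 (10.1%) were lower with I-BET151 at an adjusted p under 0.05, where 1.96% of all shared regions were lower, and 1 (0.348%) was higher, where 3.41% of all shared regions were higher. The median shift was -0.69 score units in the members and -0.03 over all shared regions. Among the 29 were 21 repeated and 8 single-copy members. Repeated members had been chosen in part through DMSO replicate 2, which covered the most bases in 57 of the 61 and without which 39 met the rule. Their folds in that library were therefore not free of the choice, so their calls and their median shift (-1.54) are a description that supports no difference between the groups. Single-copy members had been chosen in part through I-BET151 replicate 2, which covered the most bases in 217 of the 226. Without it, 29 of them met the rule, so their calls too are a description that supports no difference between the groups.

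With DMSO replicate 2 left out, 1 of 256 broad regions was lower (0.391%) and 0 were higher, beside 0.523% lower and 0.910% higher among the 33835 shared regions of that fit. Without DMSO replicate 1, 44 of 280 were lower (0.435% of all shared regions). Without I-BET151 replicate 1, 46 of 306 were lower (2.50%), and without I-BET151 replicate 2, 52 of 88 were lower (6.62%), a set in which repeated members prevailed. Each fit with a library left out had a lone library in a group, so these counts are a description that supports no difference between the groups. Ranking by -log10 p gave 4 members lower, all repeated, of 27 lower and 8 higher over all shared regions. Centred log2 summit pileup gave 35 lower, of which 33 were repeated, of 1191 lower and 174 higher over all shared regions. On the pileup scale the median shift of the single-copy members was 0.13, against -0.48 by fold rank, so no direction is given for them as a group.

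The largest fall was at chr2:90288513-90292972, a repeated region between genes with RPIA as the nearest protein-coding TSS. Its highest folds were 6.55 and 9.71 in DMSO and 3.64 and 5.17 in I-BET151, which placed it at percentiles 91.6 and 97.8 against 5.43 and 35.8, and its score fell by 3.34 (SE 0.44, adjusted p = 0.00267 in limma). The next falls were at chr10:40555469-40557932 (a change of -3.20, adjusted p = 0.00539), which holds 8 CENP-B boxes, and at chr5:49622334-49624505 (-2.75, adjusted p = 0.00595) and chr5:49642307-49646256 (-2.57, adjusted p = 0.0157), which hold 2 and 9. The fifth, at chr10:38514552-38517075 (-2.55, adjusted p = 0.0136), was rich in GGAAT. Its percentiles were 98.7 and 99.9 in DMSO and 49.9 and 91.4 in I-BET151. As above, the choice of repeated members was not free of the folds in DMSO replicate 2.

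The only member higher with I-BET151 was the start of VLDLR, a receptor for lipoproteins and reelin (chr9:2621208-2623872). Its highest folds were 3.04 and 2.81 in DMSO and 6.91 and 7.72 in I-BET151, at percentiles 11.5 and 5.52 against 67.3 and 68.4. The score difference was 1.36 (SE 0.38, adjusted p = 0.0485 in limma). The covered widths were 639 and 512 bp in DMSO and 697 and 2665 bp in I-BET151, so it met the limit only through I-BET151 replicate 2, and its call is not independent of that choice. Without I-BET151 replicate 2 the same start, then no longer broad, had a difference of 1.51, which rests on a single I-BET151 library. The adjusted p was 0.281, 0.295 and 0.0714 without DMSO replicate 1, DMSO replicate 2 and I-BET151 replicate 1. It was 0.0979 by -log10 p, 0.0630 by mean fold, 0.174 by summit pileup and 0.0550 with a replicate block.

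The 8 single-copy members that were lower, named after their values were seen, were the starts of LPXN and ZFP91 (which share a region), RICTOR, TMTC2, LRRC1, EOLA2, BHLHE40 and LONRF1 and the intergenic region nearest to TMEFF2 shown above. At the LPXN and ZFP91 start, the highest folds were 6.62 and 6.21 in DMSO and 6.15 and 5.88 in I-BET151, and the score fell by 1.83 (SE 0.39, adjusted p = 0.0205 in limma). RICTOR, a subunit of mTOR complex 2, had highest folds of 7.47 and 7.60 in DMSO and 6.83 and 8.04 in I-BET151, and its score fell by 1.71 (SE 0.38, adjusted p = 0.0216). These folds spanned 5.88 to 6.62 and 6.83 to 8.04 over the 4 libraries, and the fall was one of rank, as the median fold over all shared regions was 5.16 and 4.60 in DMSO but 8.33 and 10.0 in I-BET151. By fold rank, 8 of the 226 single-copy members (3.54%) were lower, beside 1.96% of all shared regions and 1.70% of the narrower single-copy ones. By summit pileup 2 were lower, where 4.65% of all shared regions were lower, and by -log10 p 0 were, where 0.105% were. As above, the choice of single-copy members was not free of the folds in I-BET151 replicate 2.

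None of the listed genes with a broad start passed the test. The shift was -1.26 for DUSP6 (adjusted p = 0.0815), -1.12 for HEY2 (0.113), -0.73 for RBPJ (0.278), -0.72 for FOXA1 (0.273), -0.40 for MEIS2 (0.611) and 0.65 for CDKN2A (0.348), all adjusted p-values from the same limma fit.

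**Figure D5:**
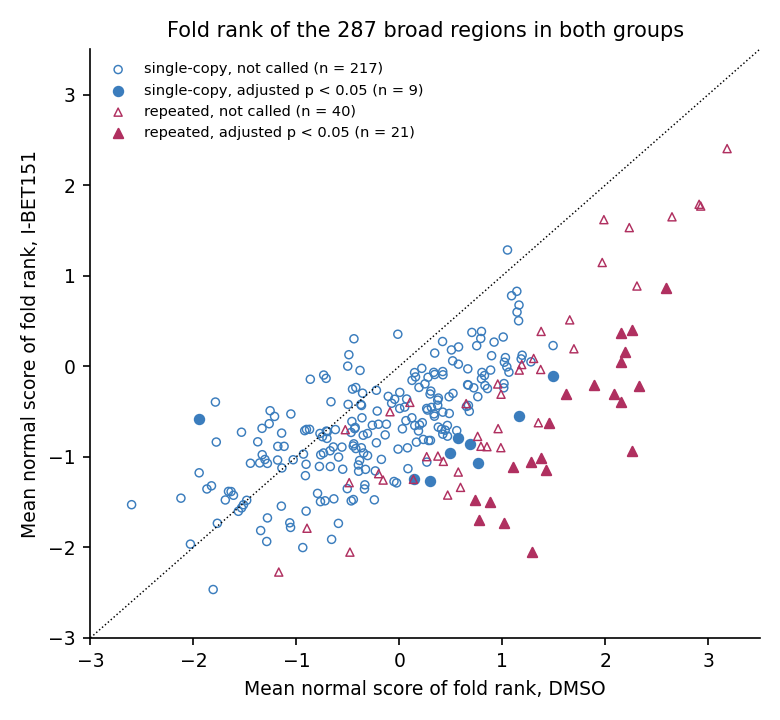
Mean normal score of fold rank in DMSO (x axis) and in I-BET151 (y axis) for the 287 broad regions, with circles for single-copy and triangles for repeated members, filled where the adjusted p was under 0.05, and a dotted line of equal scores. The triangles lie below the line, as do 29 of the 30 filled symbols, and VLDLR is the filled circle above it. The choice was not free of the folds in DMSO replicate 2 for triangles and in I-BET151 replicate 2 for circles.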

How the data were processed

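ATAC-seq libraries of 2 DMSO and 2 I-BET151 samples were compared. The authors aligned reads to hg38 with Bowtie2 (2.2.5). They took out duplicates and reads of the mitochondrial genome, then ran MACS2 (2.1.2) on every library separately. The deposited lists give, per peak, a fold (ratio of summit pileup to local background) and -log10 p and q. The deposited integer score, a display value, was not used.

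Members and gene lists were chosen with earlier results of these data known. Regions, 31-base copy counts and GENCODE annotation were computed in Python 3.11.15 and shifts with limma 3.58.1. Summit pileup and background were solved from fold and -log10 p, which gave whole reads within 0.01 for 100% of peaks, and depth is known only through this estimate. On simulated scores for the I-BET151 contrast over 25627 regions, 99 of 100 raised and 99 of 100 lowered regions (shift 2) were recovered, with 15 false calls. All simulated regions had the same spread, and the real shifts of single-copy members ran from -1.83 to 1.39. The simulation therefore does not measure recovery or false calls at such shifts.

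Named regions were the 10 widest, the 5 largest called shifts each way, those of listed genes (all pancreatic, foregut and Notch genes, otherwise the 4 widest), the 3 highest and 3 lowest in mean percentile and the 3 on each side of the width limit. A region was named by the protein-coding TSS it covers, else the gene it lies in, else the nearest TSS. Alternatives covered peak thresholds, equal peak numbers, merging distance, width limits, ranking measures, a replicate block and leaving out each library. Read alignments were not used here, so multiply mapped reads could not be counted.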

Additional observations from a re-analysis of the deposited data

How the results depend on the processing

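The number of broad regions stayed within 1.5 times of 287 in 7 of 13 alternatives. It was 172 with peaks of -log10 p of at least 10, 79 where peaks had to cover at least 50% of the region in each list, 1766 from 1500 bp, 47 from 3000 bp and 0 with single peaks of 2000 bp in every list, and 88 to 306 with a library left out (88 without I-BET151 replicate 2). The share over a protein-coding TSS (72.8%) was 80.0% with equal numbers of peaks, 80.3% from 1500 bp, 2.13% from 3000 bp and 33.0% to 75.8% with a library left out (62.4% without I-BET151 replicate 1). The covered width ratio (1.14) was 1.10 with equal numbers of peaks and ran from 0.327 to 1.74 with a library left out, below 1 without DMSO replicate 1 (0.842) and without I-BET151 replicate 2 (0.327). The mean percentile difference (-3.23) was -27.3 with equal numbers of peaks, -0.777 with peaks of -log10 p of at least 10, -22.0 to -2.44 with a library left out and 2.97 by -log10 p. The cause of these changes was not tested.

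The count of members lower with I-BET151 (29) was 45 with equal numbers of peaks, 18 by mean fold, 4 by -log10 p, 8 over single-copy regions alone (an alternative chosen after seeing the data) and 1 to 52 with a library left out. The count higher (1) was 2 of 280 with peaks of -log10 p of at least 5, beside 3.56% of all shared regions. It was 0 by -log10 p, by mean fold and by summit pileup, beside 0.0312%, 2.13% and 0.679% of all. In the fits with a library left out, the lone library of a group is assumed to vary like the other group.

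Replicate numbers are shared between groups, but the labels tie them to no batch, so they were not treated as paired in the main fit. The deviations of same-numbered libraries correlated at -0.14 over all shared regions and 0.57 over the broad ones. Within the broad regions the correlation was 0.04 over single-copy and 0.33 over repeated members. A replicate block gave 43 lower and 1 higher (652 and 985 over all shared regions), a covered width ratio of 1.13 and a percentile difference of -3.23. Crossing the numbers, chosen after seeing the data, gave 80 lower and 2 higher (1567 and 1985 over all). Depth is known only as an estimate, and no value here separates repeated sequence that was open from reads that mapped to it from elsewhere.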

Other observations

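The 20 single-copy broad regions with no protein-coding TSS included a pair on chromosome 9 at KLF9, a zinc finger factor gene, with 1 region of 2520 bp inside the gene (summit 515 bp from the nearest TSS) and 1 of 2316 bp upstream, both CpG-rich. A region of 2387 bp had its summit at position -5864 from the SOX4 start, itself covered by a shared region of 951 bp. The regions nearest to ADGRL2 (2140 bp) and MTPN (2127 bp) were poor in G and C, at 33.4% and 39.5% over the central 1000 bp. These regions were chosen after their values were seen.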
